A study of Mus musculus with 6 samples.

Results

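Imprinted genes are transcribed mainly from the copy inherited from 1 parent, and several of them set how large a fetus and newborn become. The set described here holds 10 of them, chosen by symbol in the table of expression values: H19, Meg3, Dlk1, Cdkn1c, Grb10, Mest, Plagl1, Peg3, Zim1 and Ndn. All 10 were found among the 19241 genes of the table. Bulk RNA sequencing was done on total RNA of the entire interscapular brown fat of newborn mice. The WT group held 3 libraries of the genotype Fstl1-floxed, and the KO group 3 libraries of Myf5-Fstl1 KO mice, in which the floxed gene was deleted in the Myf5 lineage. Myf5 marks precursors of skeletal muscle and of much of the interscapular brown fat, so cells of other lineages in the depot keep the gene. The labels do not say whether WT mice carried a Cre transgene. Nor do they say that the libraries of a group came from separate animals, so p-values measure only the spread between these libraries, which may be technical.

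Imprinted genes lie in clusters, and each cluster is governed by a control region whose DNA methylation was set in the egg or the sperm. As a textbook rule, genes expressed from the paternal copy tend to promote growth and genes expressed from the maternal copy tend to restrain it. Many are high in fetal and newborn tissue and are silenced after birth. In fat, Dlk1 and Ndn are known as brakes on the conversion of precursors to fat cells, and Mest is known to rise in expanding fat. The deposited values do not separate the parental copies, so every level below is a sum over both.

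The sequences shown first belong to the transcripts that differed most between the groups or stood highest. Mest (Entrez gene 17294, chr6:30733506-30748466, GRCm38) carries the hairpin of miR-335, and H19 (14955, chr7:142575530-142578146) carries that of miR-675. The mature sequences, from RefSeq on GRCm38.p6, are given with the seed (bases 2 to 8) in capitals.
mmu-miR-335-5p: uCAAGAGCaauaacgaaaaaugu
mmu-miR-335-3p: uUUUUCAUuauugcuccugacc
mmu-miR-675-5p: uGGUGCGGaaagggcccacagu
mmu-miR-675-3p: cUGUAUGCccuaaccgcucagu
No seed is shared among these 4. Mirg (100040724, chr12:109734981-109749458), a long noncoding RNA downstream of Meg3, holds 10 of the miRNA hairpins entered in the RefSeq table, with 19 mature products and 18 different seeds. The shared seed is that of miR-453 and miR-496a-5p, and miR-410-3p, from further downstream in Mirg, is shown beside them as a product with another seed.
mmu-miR-453: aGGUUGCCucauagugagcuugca
mmu-miR-496a-5p: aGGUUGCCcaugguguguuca
mmu-miR-410-3p: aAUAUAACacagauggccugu
Only the host transcripts were measured here. Of the 18 hairpins that the RefSeq table enters inside H19, Meg3, Mest, Rian, Mirg and Rtl1, 4 had a row of their own, none above 3.14 FPKM in any library, and mature miRNAs are not captured by such rows.

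The promoter of Mest, the member with the smallest p-value, is shown from RefSeq with its CpG dinucleotides in capitals, since CpG methylation of this promoter distinguishes the parental copies. The window runs from 250 bases before to 50 bases after a start site (chr6:30737800-30738099, plus strand, GRCm38.p6) and holds 17 CpG. The promoter of Nap1l5 (chr6:58907077-58907376, minus strand), an imprinted gene outside the set that passed the test below, also holds 17. The Mest window was picked for its CpG count among the start sites listed, and the window of the first Mest start site holds 8.
Mest promoter: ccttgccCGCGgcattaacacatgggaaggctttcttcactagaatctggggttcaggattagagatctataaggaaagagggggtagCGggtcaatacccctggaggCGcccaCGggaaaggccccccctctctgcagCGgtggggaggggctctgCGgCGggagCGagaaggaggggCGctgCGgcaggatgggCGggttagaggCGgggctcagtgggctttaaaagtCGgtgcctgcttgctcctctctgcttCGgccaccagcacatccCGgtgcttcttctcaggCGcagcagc
Nap1l5 promoter: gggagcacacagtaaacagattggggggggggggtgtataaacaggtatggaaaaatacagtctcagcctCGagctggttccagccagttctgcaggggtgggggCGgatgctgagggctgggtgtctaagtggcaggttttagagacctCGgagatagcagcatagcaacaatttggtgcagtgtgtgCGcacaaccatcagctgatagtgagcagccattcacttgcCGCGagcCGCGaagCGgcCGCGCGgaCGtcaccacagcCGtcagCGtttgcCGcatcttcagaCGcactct
Of 32851 promoter windows of this length, 31.4% hold at least 17 CpG and 48.6% at least 8, and the median is 7. Among the members with a promoter in the RefSeq table, the richest was the first start site of Grb10 with 45 CpG, a number reached by 1.93% of windows, and methylation was not measured in these libraries.

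The libraries were estimated at 13900000 to 15000000 reads from the steps between low values, and their FPKM (fragments scaled by transcript length and by mapped fragments in the library) summed to 486449 to 556968. Fstl1, the deleted gene, stood at 55.5, 130.04 and 54.4 FPKM in the WT libraries against 7.93, 13.1 and 8.77 in the KO libraries, a log2 fold change of −2.79 with an adjusted p of 0.00979 in limma. Xist was at 44.8 FPKM or more in every WT library and at 0.92 or less in every KO library, and the Y-linked gene Ddx3y was at 59.5 FPKM or more in every KO library and at 0.23 or less in every WT library. Sex therefore coincided with genotype, and their parts in any difference below cannot be told apart. Over all genes, 295 of 13331 tested genes had an adjusted p under 0.05, which is 2.21% (1.01% lower and 1.21% higher in KO). KO replicate 1 stood apart in muscle: the 10 skeletal muscle markers summed to 287 FPKM there and to 1178 to 1716 in the other 5 libraries. WT replicate 3 stood apart in blood: the 5 red cell markers summed to 11012 FPKM there and to 2345 to 3894 elsewhere. As a check of the tissue only, Adipoq, Fabp4, Lpl and Ucp1 were at 889 FPKM or more in every library (both fat lists are given beside Mest), and cartilage markers were near 0 (summed 0.73 FPKM at most).

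None of the 10 growth genes passed the test. In limma 0 of 10 had an adjusted p under 0.05, against the 2.21% of all tested genes. At an unadjusted p under 0.05 there were 2, Mest and Peg3, where the share over all tested genes was 19.2%. The groups did not overlap in 1 member, Mest, where the share over all tested genes was 24.9% (11.4% with KO below WT and 13.6% with KO above). Weighting libraries by their own scatter (array weights in limma) raised the calls over all genes to 3181 of 13331 tested. Of these, 1634 lay lower and 1547 higher in KO. With these weights 4 of 10 members passed, all lower in KO: H19 (adjusted p 0.0357), Cdkn1c (0.0305), Mest (0.00578) and Ndn (0.0136). The weights also moved their log2 fold changes. H19 went from −0.25 to −0.57, Cdkn1c from −0.21 to −0.64, Mest from −0.62 to −0.69 and Ndn from −0.59 to −0.86. By sign in the unweighted fit, 5 members lay lower in KO and 5 higher, with a median log2 fold change of −0.05 beside 0.01 over all tested genes. The members passed the filter on low values whichever group is considered, the lowest value of any being 9.73 FPKM. The plot of FPKM by library gives every value.

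**Figure D1:**
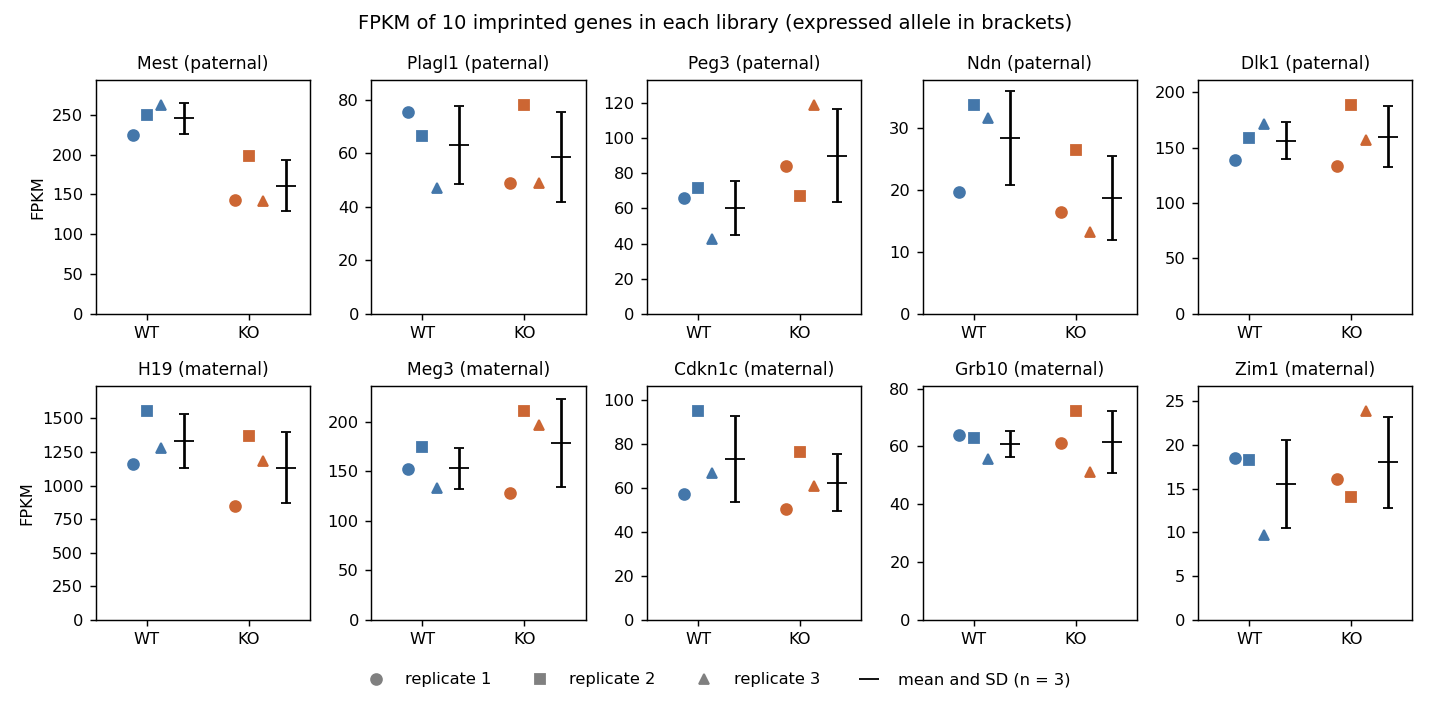
FPKM of each of the 10 genes on the vertical axis in the WT libraries (blue) and the KO libraries (orange), with a symbol for each replicate and the mean and SD beside them. Mest is the gene whose KO libraries, at 142 to 199 FPKM, all sit below the WT libraries, at 224 to 263 FPKM.

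Levels spanned a wide range, and FPKM, being per length, allow genes to be set side by side. H19 averaged 1233 FPKM over the 6 libraries and ranked 41st of all genes. Mest followed at 203, Meg3 at 166, Dlk1 at 158, Peg3 at 75.1, Cdkn1c at 67.8, Grb10 at 61.1, Plagl1 at 60.9, Ndn at 23.5 and Zim1 at 16.8. The ranges over the libraries of Mest, Meg3 and Dlk1 overlapped, as did those of Peg3, Cdkn1c, Grb10 and Plagl1 and those of Ndn and Zim1, so the order within each of these 3 groups is not resolved.

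Among the paternally expressed members, Mest encodes an endoplasmic reticulum protein of the alpha/beta hydrolase fold and is known as a marker of fat cell enlargement. It stood at 224, 250 and 263 FPKM in the WT libraries (replicates 1, 2 and 3 in this order throughout) against 143, 199 and 142 in the KO libraries. Every KO library lay below every WT library, with KO replicate 2 nearest to WT. The means were 246 ± 19.5 and 161 ± 32.4 FPKM (SD, n = 3 each), so the KO mean was 65.6% of the WT mean. This was a log2 fold change of −0.62 (95% interval −0.999 to −0.24) and missed the threshold over all genes (limma, SE 0.17, adjusted p 0.0921). An exact permutation test gave p 0.1, the smallest that 3 libraries against 3 allow.

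In fat, Mest levels are known to follow lipid filling, and fat and brown fat markers are given beside it. The 8 fat cell markers summed to 17482 to 20863 FPKM in WT and to 17319 to 19507 in KO, an overlapping sum made up mostly of Fabp4. Of these 8 genes 1 passed, beside 2.21% of all tested genes: Plin1, which encodes a coat protein of the lipid droplet. Plin1 stood at 174, 309 and 254 FPKM in the WT libraries against 106, 76.6 and 96.9 in the KO libraries, and its fall of 1.36 on the log2 scale had an adjusted p of 0.0267 in limma. Cidec, another lipid droplet gene, lay lower in KO without overlap but only narrowly, at 338 to 431 FPKM in WT and 286 to 335 in KO. It did not pass (limma, adjusted p 0.350). Lpl lay higher without overlap and did not pass (limma, adjusted p 0.646), and the groups overlapped for Adipoq, Fabp4, Pparg, Cebpa and Lipe. Among all tested genes the groups did not overlap in 24.9%. The 6 brown fat markers summed to 5800 to 8340 FPKM in WT and to 3369 to 5438 in KO, a sum set mostly by Ucp1, and these groups did not overlap. In that list 0 of 6 passed in limma. At an unadjusted p under 0.05 there were 4, with 3 lower in KO and 1, Ppargc1a, higher (147% of the WT mean). Over all tested genes the share at this p was 19.2%, and the share with KO below WT without overlap was 11.4%. Ucp1, Prdm16 and Ebf2 lay lower in KO without overlap, at 48.9%, 46.0% and 44.4% of the WT mean (limma, adjusted p 0.0804, 0.0519 and 0.0917), while Ppargc1a, Cidea and Dio2 overlapped. Their part in the lower Mest level was not tested, and in a bulk depot fewer cells of a type cannot be told apart from less RNA per cell. Copg2, which in GENCODE overlaps 23.1% of the exon bases of Mest on the opposite strand, was at 13.3 to 15.6 FPKM in WT and 14.2 to 16.3 in KO, well below Mest. Strand handling is not given in the sources used here.

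Ndn (17984, chr7:62348277-62349928) encodes necdin, a protein of the MAGE family that holds back cell division and fat cell formation. It stood at 19.6, 33.7 and 31.6 FPKM in the WT libraries against 16.4, 26.4 and 13.3 in the KO libraries. The groups overlapped, since KO replicate 2 lay above WT replicate 1. The KO mean was 66.0% of the WT mean, a log2 fold change of −0.59 (95% interval −1.22 to 0.03) that did not pass (limma, adjusted p 0.281).

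Peg3 (18616, chr7:6703892-6730462) encodes a large zinc finger protein of the nucleus. It stood at 65.9, 71.8 and 42.7 FPKM in the WT libraries against 84.0, 67.2 and 119 in the KO libraries. The highest library was KO replicate 3 and the lowest WT replicate 3, the library rich in red cell transcripts, and the groups overlapped through KO replicate 2. The log2 fold change was 0.57 (95% interval 0.0005 to 1.14) and did not pass (limma, adjusted p 0.260). Without WT replicate 3 it was 0.35, and without KO replicate 3 it was also 0.35.

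Plagl1 (22634, chr10:13090832-13131694) encodes a zinc finger transcription factor, also called ZAC1, which is known to act on several other imprinted genes. It stood at 75.7, 66.4 and 47.0 FPKM in the WT libraries against 49.1, 78.2 and 49.0 in the KO libraries. High and low libraries occurred in both groups, and the log2 fold change of −0.11 (95% interval −0.64 to 0.42) did not pass (limma, adjusted p 0.848). The sign is not settled, since it turned in 3 of the 6 fits that left out a library. PLAGL1 is known to bind a palindrome, GGGGCCCC, which reads the same on both strands. Among the promoter windows of 8 members in the RefSeq table it was found in that of Peg3 and in no other, beside 1.08% of all windows. The match is shown in capitals in the Peg3 window (chr7:6730370-6730669, minus strand, GRCm38.p6), as a description of the letters alone.
Peg3 promoter: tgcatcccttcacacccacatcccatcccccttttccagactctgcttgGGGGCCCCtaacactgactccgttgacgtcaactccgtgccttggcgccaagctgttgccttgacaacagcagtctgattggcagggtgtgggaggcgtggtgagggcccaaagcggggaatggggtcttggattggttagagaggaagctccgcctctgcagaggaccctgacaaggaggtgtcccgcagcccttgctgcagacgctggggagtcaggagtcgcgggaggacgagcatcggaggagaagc

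Dlk1 (13386, chr12:109452485-109463336) encodes a transmembrane protein with EGF-like repeats, known as preadipocyte factor 1, that is shed and delays fat cell formation. It stood at 139, 158 and 172 FPKM in the WT libraries against 134, 189 and 157 in the KO libraries. The means were 156 ± 16.6 and 160 ± 27.6 FPKM (SD, n = 3 each), and the groups overlapped throughout. The log2 fold change was 0.02 (95% interval −0.35 to 0.40), with an adjusted p of 0.961 in limma, and it turned to −0.0025 with median-of-ratios scaling.

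Among the maternally expressed members, H19 is a long noncoding RNA that restrains growth, partly through the miR-675 hairpin shown above. It stood at 1163, 1556 and 1280 FPKM in the WT libraries against 846, 1369 and 1184 in the KO libraries. The lowest library was KO replicate 1, the library low in muscle transcripts, and the other KO libraries lay within the WT range. The difference was −0.25 on the log2 scale (95% interval −0.71 to 0.21) and did not pass (limma, adjusted p 0.536). Without KO replicate 1 it was −0.06.

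Cdkn1c (12577, chr7:143458339-143461059) encodes p57, an inhibitor of cyclin-dependent kinases. It stood at 57.3, 95.1 and 67.0 FPKM in the WT libraries against 50.3, 76.2 and 60.9 in the KO libraries. Replicate 2 was the highest library in each group, KO replicate 1 was the lowest of all, and the groups overlapped. Its log2 fold change was −0.21 (95% interval −0.71 to 0.29; limma, adjusted p 0.644). It was −0.07 without KO replicate 1 and −0.0078 without WT replicate 2. In GENCODE the opposite-strand gene Gm44732 shares 30.7% of the exon bases of Cdkn1c.

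Meg3 (17263, chr12:109540996-109571729) is a long noncoding RNA of the Dlk1 cluster. It stood at 152, 174 and 133 FPKM in the WT libraries against 128, 211 and 197 in the KO libraries. KO replicate 1 was the lowest library, while the other KO libraries were above every WT library. On the log2 scale the difference was 0.20 (95% interval −0.27 to 0.67; limma, adjusted p 0.650) and reached 0.42 without KO replicate 1, where it did not pass either (limma, adjusted p 0.305).

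Grb10 (14783, chr11:11930499-12037428) encodes an adaptor that dampens signalling from the insulin and IGF1 receptors. It stood at 63.8, 62.9 and 55.5 FPKM in the WT libraries against 61.1, 72.3 and 51.1 in the KO libraries. The WT values lay inside the KO range, and the log2 fold change was 0.01 (95% interval −0.36 to 0.37; limma, adjusted p 0.990), turning to −0.02 with median-of-ratios scaling. Of the 10 genes Grb10 had the smallest absolute fold change.

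Zim1 (22776, chr7:6674444-6696540), a zinc finger gene beside Peg3, stood at 18.6, 18.3 and 9.73 FPKM in the WT libraries against 16.2, 14.1 and 23.9 in the KO libraries. As for Peg3, WT replicate 3 was the lowest library and KO replicate 3 the highest. Its log2 fold change was 0.22 (95% interval −0.39 to 0.84; limma, adjusted p 0.704), and without WT replicate 3 it was −0.06.

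Members were not lowest in the same library. H19, Meg3, Dlk1 and Cdkn1c were lowest in KO replicate 1, Plagl1, Peg3 and Zim1 in WT replicate 3, and Grb10, Mest and Ndn in KO replicate 3. KO replicate 2 was the highest library for Meg3, Dlk1, Grb10 and Plagl1. The 7 markers of fibroblasts and fat precursors summed to 1064 FPKM in KO replicate 2 and to 567 to 761 in the other libraries. The part of muscle, red cell or fibroblast RNA in these levels was not tested. Of the muscle list, all 10 genes had a negative log2 fold change and 0 passed in limma, at an unadjusted p under 0.05 also 0. By mean FPKM, Myh3 lay higher in KO, at 119% of the WT mean. The mean deviation of the list on the log2 scale was −1.53 in KO replicate 1. It was 0.21 in KO replicate 2 and 0.60 in KO replicate 3, so the muscle list was not low in every KO library. The 5 myogenic precursor markers in the table summed to 4.34 to 5.82 FPKM in WT. In KO they summed to 0.41, 3.42 and 3.58, without overlap. Pax7 and Pax3, at 0.25 FPKM or less, overlapped between the groups. Pax7 was highest in KO replicate 3, and Pax3 was at 0 in WT replicate 2 as well as in KO replicate 1. Myf5, Myod1 and Myog each lay lower in every KO library than in every WT library. Myog did so only narrowly (2.83 against 2.86 FPKM). Myf5, at 0.44 FPKM or less, was under the filter and not tested. Among all tested genes the share with KO below WT without overlap was 11.4%. Neither of the pair above the filter, Myod1 and Myog, passed (limma, adjusted p 0.124 and 0.324).

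**Figure D2:**
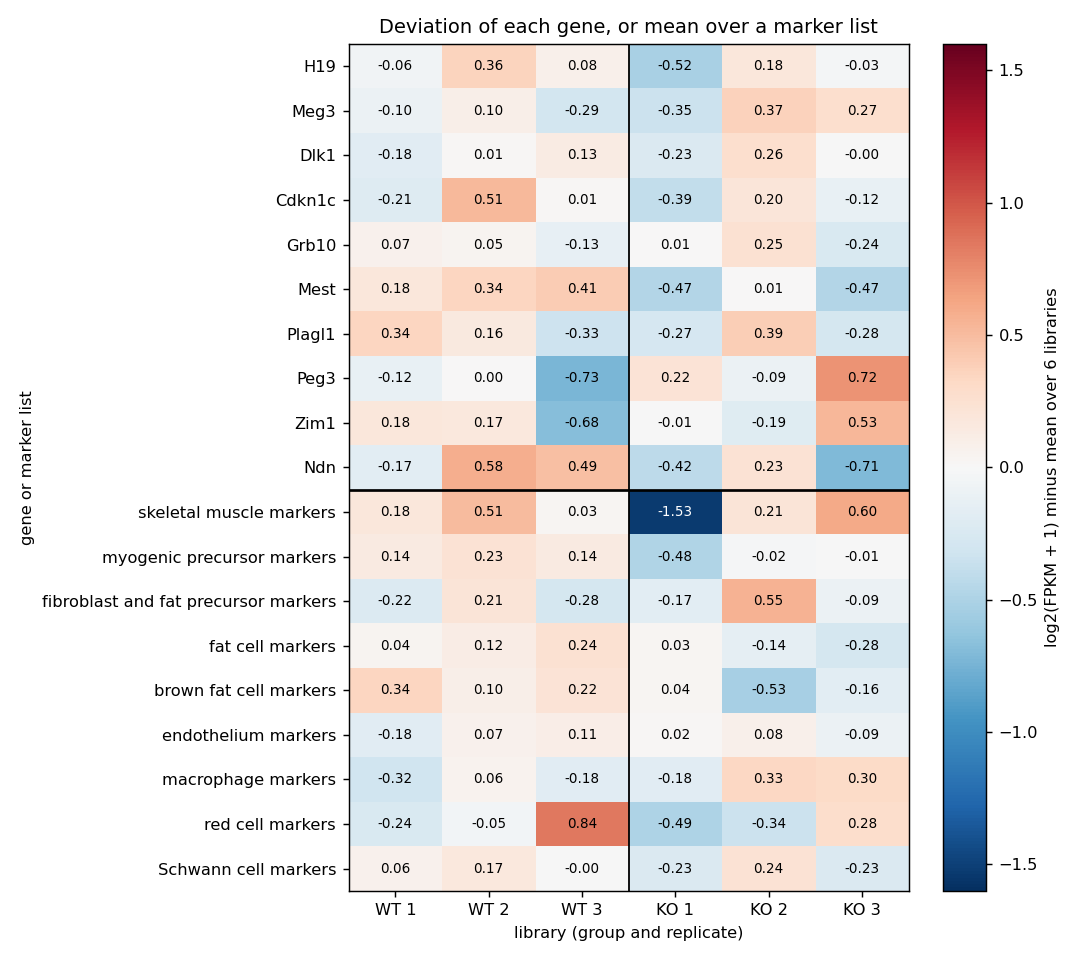
Deviation of log2(FPKM + 1) from the mean over the 6 libraries (colour and printed value) for each of the 10 genes and, below the line, averaged over the genes of each marker list, with libraries in columns. KO replicate 1 is at −0.52 for H19 and at −1.53 for the skeletal muscle markers, while Peg3 and Zim1 share their low library, WT replicate 3 (−0.73 and −0.68).

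Neighbours in a cluster were then compared within each library. Peg3 and Zim1 lie 7.35 kb apart on chromosome 7 and are transcribed in the same direction from opposite parental copies. The ratio of Peg3 to Zim1 FPKM was 3.55, 3.92 and 4.39 in WT and 5.20, 4.78 and 4.98 in KO. Every KO library lay above every WT library, although each gene alone overlapped between the groups. The log2 ratio differed by 0.34 (exact permutation test, two-sided p 0.1, the smallest possible, and 0.3 adjusted over the 3 ratios).

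H19 and Igf2 lie 72.6 kb apart and share an enhancer that each uses on its own parental copy. The ratio of H19 to Igf2 was 2.79, 3.03 and 2.48 in WT and 2.23, 2.49 and 2.85 in KO, and the groups overlapped (exact permutation test, p 0.5, adjusted 0.5). Igf2 itself, which encodes the fetal growth factor IGF2, stood at 417, 513 and 516 FPKM in the WT libraries against 379, 549 and 415 in the KO libraries (limma, log2 fold change −0.12, adjusted p 0.765). Dlk1 and Meg3 lie 77.7 kb apart under the same control region. Their ratio was 0.91, 0.91 and 1.29 in WT and 1.05, 0.90 and 0.80 in KO, and the groups overlapped (exact permutation test, p 0.5, adjusted 0.5).

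Downstream of Meg3, on the same strand, lie the long noncoding RNAs Rian, which hosts small nucleolar RNAs, and Mirg, and antisense to this stretch lies Rtl1, a gene derived from a retrotransposon. Mirg stood at 9.96, 15.9 and 10.5 FPKM in the WT libraries against 4.74, 6.39 and 7.5 in the KO libraries. Every KO library lay below every WT library, and the KO mean was 51.3% of the WT mean. The difference on the log2 scale was −0.85 (95% interval −1.34 to −0.37) and missed the threshold (limma, adjusted p 0.0775). Rtl1 stood at 2.58, 5.69 and 2.23 FPKM in the WT libraries against 0.88, 1.87 and 3.17 in the KO libraries, overlapping (limma, log2 fold change −0.59, adjusted p 0.380).

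Set against Meg3 in the same library, the downstream RNAs separated the groups, in a comparison chosen after the values were seen and given without a test. Mirg came to 6.54%, 9.11% and 7.94% of the Meg3 FPKM in WT and to 3.71%, 3.03% and 3.81% in KO. Rian, at 60.1 to 98.9 FPKM in WT and 47.6 to 85.5 in KO, came to 55.1%, 56.8% and 45.4% of Meg3 in WT and to 37.3%, 40.5% and 40.2% in KO. In both ratios all KO libraries lay below all WT libraries, KO replicate 1 included. Meg3 is listed with 3 transcripts and Rian and Mirg with 1 each.

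**Figure D3:**
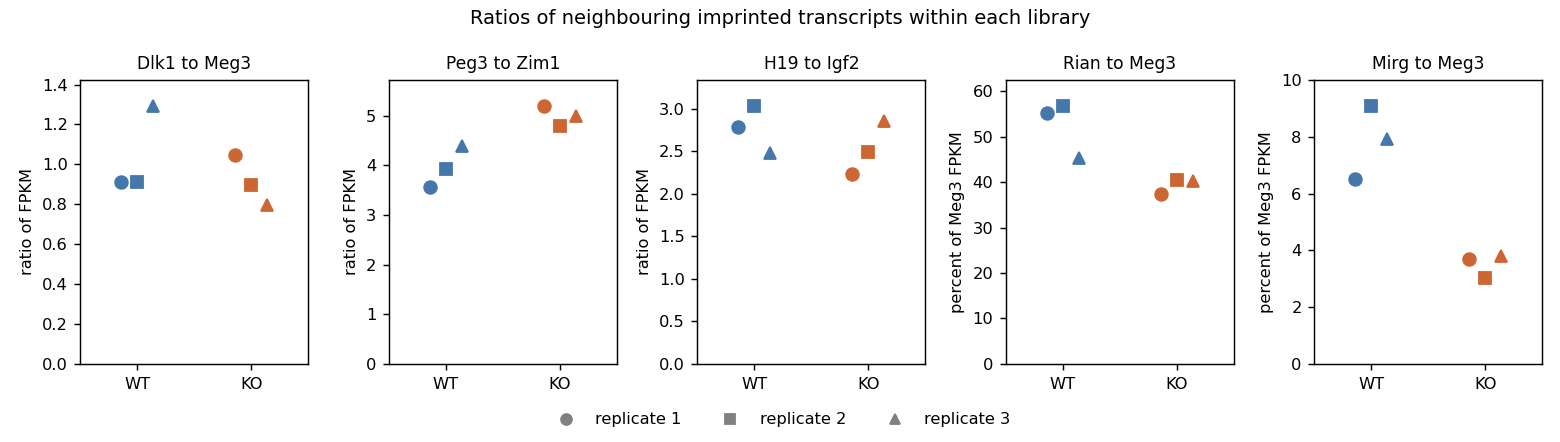
Ratio of FPKM between neighbouring imprinted transcripts within each library on the vertical axis, as a plain ratio for the first 3 panels and as a percentage of Meg3 for Rian and Mirg, with WT in blue and KO in orange and a symbol for each replicate. The groups overlap for Dlk1 to Meg3 and for H19 to Igf2, while Mirg is at 6.54% to 9.11% of Meg3 in WT and at 3.03% to 3.81% in KO.

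Beyond the 10 genes, 31 other imprinted genes were listed, and all were in the table, with 24 above the filter. In limma 1 of the 24 passed an adjusted p of 0.05, Nap1l5, beside 2.21% of all tested genes. At an unadjusted p under 0.05 there were 5, and the groups did not overlap in 5, beside 19.2% and 24.9% of all tested genes. By sign 12 lay lower and 12 higher in KO, with a median log2 fold change of −0.01. Paternally expressed genes had a median of −0.03 (17 genes) and maternally expressed genes of 0.01 (7 genes).

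Nap1l5 (58243, chr6:58905233-58907126) is an intronless, paternally expressed gene for a protein like nucleosome assembly protein 1. It stood at 2.01, 2.52 and 1.82 FPKM in the WT libraries against 0.82, 0.90 and 0.58 in the KO libraries. Every KO library lay below every WT library, and the KO mean was 36.2% of the WT mean. On the log2(FPKM + 1) scale, which understates changes of low genes, it fell by 0.82 (limma, SE 0.16, adjusted p 0.0406). By the estimated depth these values rest on 16 to 68 reads per library. Among the settings that ended the call were leaving out any 1 of the 6 libraries (limma, adjusted p 0.0546 to 0.158), no filter (0.0848) and a common FPKM sum (0.0520).

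The neighbours of Ndn gave a mixed picture. Magel2, which lies 27.1 kb from Ndn and encodes a relative of necdin, stood at 1.02, 1.84 and 1.42 FPKM in the WT libraries against 0.44, 1.11 and 0.25 in the KO libraries. The groups overlapped in 1 library, KO replicate 2, and the KO mean was 42.1% of the WT mean (limma, log2 fold change −0.62, adjusted p 0.179). Snrpn, a splicing protein gene of the same cluster, stood at 7.92, 8.62 and 7.69 FPKM in the WT libraries against 6.18, 6.38 and 4.54 in the KO libraries without overlap (limma, log2 fold change −0.45, adjusted p 0.180). Mkrn3 and Peg12, in the same cluster, had log2 fold changes of 0.03 and −0.07. They averaged only 0.555 and 0.935 FPKM, where the log2(FPKM + 1) scale understates changes, and their KO means were 106% and 90.8% of the WT means. Peg10, on chromosome 6, stood at 5.56, 3.96 and 3.59 FPKM in the WT libraries against 2.52, 3.97 and 2.81 in the KO libraries (limma, log2 fold change −0.39, adjusted p 0.325), and its neighbour Sgce had a log2 fold change of −0.03.

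**Figure D4:**
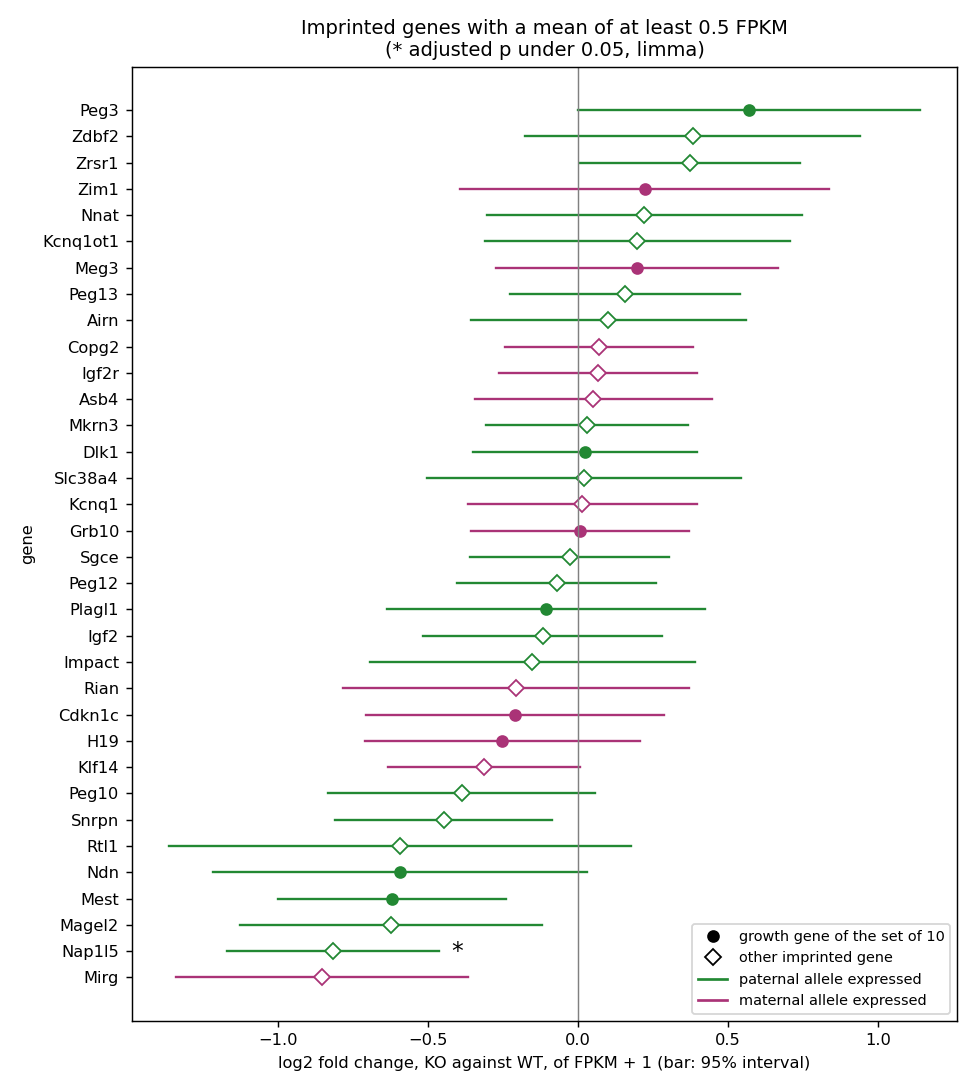
Log2 fold change of FPKM + 1 in KO against WT with its 95% interval for the 34 imprinted genes averaging 0.5 FPKM or above, ordered by value, in green for paternal and purple for maternal expression, with filled circles for the growth genes and open diamonds for the other imprinted genes. Nap1l5 carries the mark for an adjusted p under 0.05; Mest and Ndn lie at −0.62 and −0.59 and Peg3 at 0.57, and paternally and maternally expressed genes are found on each side of 0.

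For the 3 members with the widest range over the libraries, the genes with the most similar profile were sought among 12138 tested genes averaging 1 FPKM or above. Likeness was the root mean square difference between profiles of log2(FPKM + 1) over the 6 libraries, each centred on its mean. For Ndn the nearest were Adam19 (0.13), its neighbour Magel2 (0.13) and Nme6 (0.14), where Ndn itself had an SD of 0.47 over the libraries. For Peg3 (SD 0.44) the nearest were Zkscan7 (0.09), Ppargc1a (0.09) and Clca3a1 (0.11). For Zim1 (SD 0.38) they were Zbtb38 (0.09), Gpcpd1 (0.13) and Pum3 (0.14). Of these 9 genes, Ppargc1a encodes a coactivator of mitochondrial biogenesis. It stood at 22.0, 20.8 and 14.6 FPKM in the WT libraries against 27.4, 21.0 and 35.9 in the KO libraries. Its lowest and highest libraries were those of Peg3, as for Zkscan7 and Clca3a1, a likeness already implied by choosing genes on their profile. With 6 libraries many genes can share a profile, and none of the 9 passed the test between the groups in limma. The log2(FPKM + 1) scale understates changes of low genes. The likeness of Magel2 (0.25 to 1.84 FPKM) to Ndn and of Zkscan7 (0.47 to 2.43 FPKM) to Peg3 therefore also depends on that scale.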

How the data were processed

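RNA of 3 WT and 3 KO samples was sequenced, and groups and replicate numbers were taken from the sample titles. The authors deposited FPKM per gene and library, rounded to 2 decimals, per the file headers. The submitters' processing notes name HISAT2 2.0.4, Bowtie2 2.2.5, DESeq2 and the build mm10 without their roles; the counting tool and strand handling are not given in the sources used here. FPKM are not counts, so log2(FPKM + 1) of the 13331 genes averaging 0.5 FPKM or above was fitted with limma 3.58.1 in R 4.3.3 (eBayes with trend, group as the only term), with Benjamini-Hochberg adjustment over all of them. On simulated data with 200 of 13331 genes changed by 1.5 on the log2 scale, the fit recovered 84.5% and made 6 false calls. That change exceeds the largest of any member (Mest, −0.62), and scatter was drawn for each gene on its own, without shared muscle or blood differences. These rates therefore do not carry over to the members. Depth was estimated from single-transcript genes of 500 to 1300 nt with a length offset of 50 nt; 77.1% to 82.7% of low values lay within 0.2 of a whole read. mm10 is GRCm38, so positions, promoters and miRNAs came from RefSeq GRCm38.p6 and exon overlaps from GENCODE vM21. The members and the lists were chosen with earlier results of these data known. The genes named were all members, other imprinted genes past the threshold or among the 6 largest fold changes, Igf2, Fstl1 and the nearest profiles; Rian, Copg2, Mkrn3, Peg12, Sgce, Klf14, Zrsr1, Igf2r, the single marker genes and the ratios to Meg3 were added after their values were seen. Alternatives covered pseudocount, filter, scaling, trend, weights, the replicate block and leaving out each library. Figures were drawn with matplotlib 3.10.9.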

Additional observations from a re-analysis of the deposited data

How the results depend on the processing

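Over 16 alternatives for each of the 10 growth genes, 146 of 160 fold changes kept their direction and 14 turned. The number of growth genes past the threshold was 0 in every alternative except array weights, which called 4 (H19, Cdkn1c, Mest and Ndn). The count for the 31 other imprinted genes was 1; it was 0 without a filter, with a filter at 5 FPKM, with a common FPKM sum, with the replicate block and with any 1 library left out, and 6 with array weights. With the replicate block the adjusted p of Nap1l5 in limma was 0.0547. The filter at 5 FPKM removes Nap1l5, the gene called, by construction. Over all genes the count of 295 became 35 without a filter, 191 with a common sum and 167 with the replicate block. With array weights it became 3181 of the 13331 tested genes, and it ran from 31 to 370 with 1 library left out. Array weights turned Meg3 (−0.10), Dlk1 (−0.0745), Grb10 (−0.0302) and Zim1 (−0.0427), and median-of-ratios scaling turned Dlk1 (−0.0025) and Grb10 (−0.0184). Without 1 library Dlk1 ran from −0.10 to 0.14, Grb10 from −0.12 to 0.13, Plagl1 from −0.33 to 0.0359 and Zim1 from −0.0635 to 0.37. Mest ran from −0.78 to −0.54 (limma, adjusted p over all its alternatives 0.00578 to 0.302), and the 3 neighbour ratios kept their sign in every alternative run. Fewer samples leave a fit with less information, yet the calls over all genes rose from 295 to 370 without WT replicate 1. The count thus depended on which library was left out, and the cause was not tested. Same-numbered libraries deviated together only weakly (correlations 0.068, 0.043 and 0.043), so the replicate block was kept as an alternative only, although each library correlated best with its own number, as a hint from the data only. With 3 libraries a group, even the 95% interval of Grb10 reached from −0.36 to 0.37, and this width is not the limit of the test. Larger differences could also miss the threshold over all genes. Mest did so at −0.62 (limma, adjusted p 0.0921), with an SE of 0.17 beside 0.16 for Grb10.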

Other observations

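Among imprinted genes not described above, Zrsr1, a splicing factor gene expressed from the paternal copy, stood at 2.53, 1.59 and 1.72 FPKM in the WT libraries against 2.78, 2.76 and 2.79 in the KO libraries, with no overlap between the groups (limma, log2 fold change 0.37, adjusted p 0.255). Klf14, a maternally expressed transcription factor gene in the Mest cluster, stood at 1.11, 1.22 and 1.44 FPKM in the WT libraries against 0.92, 0.76 and 0.76 in the KO libraries, also without overlap (limma, log2 fold change −0.31, adjusted p 0.269). Igf2r, the receptor that clears IGF2, was at 13.4 to 16.8 FPKM in WT and 14.4 to 16.7 FPKM in KO. All 3 were named after their values were seen.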
